A study of Mus musculus with 6 samples.

Results

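Transcripts of the mitochondrial genome were compared between the hearts of newborn mice with a cardiac knockout of Kdm5b and FF hearts. They are the 37 rows, of 56748 in the deposited expression table, that lie on chromosome MT. By the table's biotype they comprise 13 mRNA genes, 2 rRNA genes and 22 tRNA genes. By its strand, 28 lie on the plus strand (12 mRNA, 2 rRNA and 14 tRNA genes) and 9 on the minus strand (1 mRNA and 8 tRNA genes). All libraries were made from total RNA of hearts at postnatal day 1. The 3 cKO hearts (genotype kdm5b Cko) carry a cardiac knockout of the histone demethylase gene Kdm5b, and the 3 FF hearts, titled Flox, are the controls of the labels. The sources used here do not give the Cre driver, the strain or the sex. They do not say whether each sample is a separate animal either, so a p-value here speaks only of the spread among these 6 samples.

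The mitochondrial genome is a small circle that is copied and transcribed inside the organelle. Transcription runs around nearly the whole of each strand, and the long precursors are cut mainly at the tRNAs that punctuate them. The transcripts read from the heavy strand, which are on the plus strand of the table, yield both rRNAs and all mRNAs but one. Those read from the light strand, on the minus strand, yield mt-Nd6 and the remaining tRNAs. The proteins are core subunits of complexes I, III, IV and V of the respiratory chain, on which the heart relies as it turns to fatty acid oxidation after birth.

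The libraries held 15658893 to 20339926 reads, recovered from FPKM (fragments per kilobase, scaled for depth, as the authors deposited them). All 10 heart muscle markers looked up were expressed, with a summed level of 15084 to 17278 FPKM in cKO and 14522 to 16286 FPKM in FF hearts. Members of this sum differed in opposite directions. Myh7 averaged 673 FPKM in cKO and 99.3 FPKM in FF hearts, and Myl2 2494 and 3720 FPKM. Kdm5b averaged 2.86 ± 0.149 FPKM in cKO and 3.45 ± 0.406 FPKM in FF hearts (SD, n = 3 each), a log2 difference of -0.20 with an adjusted p = 0.447 (limma, Benjamini-Hochberg). All cKO values lay below all FF values, by little, and the exons deleted are not stated in the labels. FF replicate 3 stood apart: its correlation with the other libraries across genes was 0.880 to 0.909, against 0.954 to 0.984 between the others. Its 11 thymocyte markers summed to 278 FPKM, against 1.26 to 1.80 FPKM in cKO hearts and at most 1.98 FPKM in the other FF hearts. Results are therefore given with and without it. In these bulk samples, fewer cells of a type, fewer mitochondrial genomes per cell and less RNA per genome cannot be told apart.

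The tRNA genes on which the results turn are shown here, read from the GENCODE M21 transcripts, with the anticodon in capitals. mt-Tn and mt-Tc (minus strand, asparagine and cysteine) had the most tRNA reads on average over the 6 libraries, although mt-Tp had more reads than mt-Tc in each cKO library. They flank a gap of 32 bases known as the origin of light-strand replication. mt-Tl1 (leucine, codons UUR) sits between the large rRNA and mt-Nd1. It is shown with mt-Tp (proline), the last gene in the table's order, because FF replicate 3 was the lowest library at mt-Tl1 and the highest at mt-Tp. The other 4 had values above FF in all cKO hearts.
mt-Tn: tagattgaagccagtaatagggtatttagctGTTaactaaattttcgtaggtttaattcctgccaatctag
mt-Tc: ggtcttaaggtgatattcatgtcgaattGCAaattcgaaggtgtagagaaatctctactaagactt
mt-Tl1: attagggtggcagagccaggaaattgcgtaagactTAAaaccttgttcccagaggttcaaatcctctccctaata
mt-Tp: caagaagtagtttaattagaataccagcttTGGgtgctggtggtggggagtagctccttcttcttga
mt-Tw: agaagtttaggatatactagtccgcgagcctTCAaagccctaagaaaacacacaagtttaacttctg
mt-Tl2: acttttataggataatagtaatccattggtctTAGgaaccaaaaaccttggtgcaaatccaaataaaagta
mt-Tq: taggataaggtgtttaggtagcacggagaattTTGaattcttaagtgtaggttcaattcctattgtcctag
mt-Ti: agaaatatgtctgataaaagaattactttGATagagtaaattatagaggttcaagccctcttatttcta

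Several mRNA genes have near-exact copies in the nuclear genome, which bears on how their reads can be assigned. A run of 7 annotated pseudogenes on the minus strand of chromosome 1 (chr1:24650616-24655278 in the coordinates of the table) repeats, in the same order, stretches of mt-Co1, mt-Co2, mt-Atp6, mt-Co3, mt-Nd3, mt-Nd4l and mt-Nd4. The first 50 bases of 2 of these genes and of their copies are shown, with differing bases in capitals.
mt-Atp6: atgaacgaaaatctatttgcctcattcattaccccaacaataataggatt
Gm10925: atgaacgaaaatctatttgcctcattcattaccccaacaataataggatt
mt-Nd3: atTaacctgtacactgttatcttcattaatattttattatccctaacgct
Gm28438: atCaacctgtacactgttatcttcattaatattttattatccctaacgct
The mt-Atp6 copy had no difference over 678 aligned bases, and the mt-Nd3 copy had a single one over 345 (T3C, counted from the first base of mt-Nd3). The copies of mt-Co2, mt-Co3, mt-Nd4l and mt-Nd4 were identical over 681, 783, 294 and 876 aligned bases. Of all windows of 50 bases in the mitochondrial gene, 98.0% to 100% were found in annotated nuclear transcripts for mt-Co2, mt-Atp6, mt-Co3, mt-Nd3 and mt-Nd4l. The share was 62.2% for mt-Nd4, 51.1% for mt-Co1, 8.19% for mt-Nd2, 7.61% for mt-Nd5 and 0% for mt-Nd1, mt-Nd6, mt-Cytb and mt-Atp8. In the run of copies, 233 bases without an annotated pseudogene separate the copies of mt-Co2 and mt-Atp6, where mt-Atp8 with its 204 bases has its place in the mitochondrial order.

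Mitochondrial genes took a smaller share of the reads in cKO than in FF hearts. The share was 15.7%, 13.5% and 12.8% in cKO replicates 1 to 3 and 19.0%, 18.0% and 19.0% in FF replicates 1 to 3, and the groups did not overlap. Nearly all of it was mRNA, with 13.4 ± 1.36% of the reads in cKO and 17.9 ± 0.783% in FF hearts (SD, n = 3 each). mt-Co1 alone held 40.1%, 50.5% and 45.7% of the mitochondrial reads in cKO and 42.6%, 44.9% and 59.9% in FF replicates 1 to 3. With mt-Co1 left out, the groups overlapped, since FF replicate 3 lay below cKO replicate 1. These sums over genes were not tested.

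The classes differed in how FF replicate 3 behaved. The 2 rRNA genes took 0.694%, 0.369% and 0.453% of the reads in cKO replicates 1 to 3, against 0.875%, 0.795% and 0.233% in FF replicates 1 to 3. FF replicate 3 thus had the lowest rRNA share of all 6 libraries, though its mRNA share of 18.7% was the highest. The tRNA genes took 0.0533%, 0.0388% and 0.0377% in cKO replicates 1 to 3 and 0.0608%, 0.0609% and 0.0543% in FF replicates 1 to 3, again without overlap. mt-Tn and mt-Tc carried this separation, and the reads of the other tRNA genes overlapped between the groups. Plus-strand tRNA took 0.0160%, 0.00963% and 0.0112% in cKO and 0.0143%, 0.0139% and 0.00501% in FF replicates 1 to 3. Minus-strand genes took 0.451%, 0.267% and 0.284% in cKO hearts and 0.618%, 0.531% and 0.417% in FF hearts, and overlapped through FF replicate 3.

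**Figure D1:**
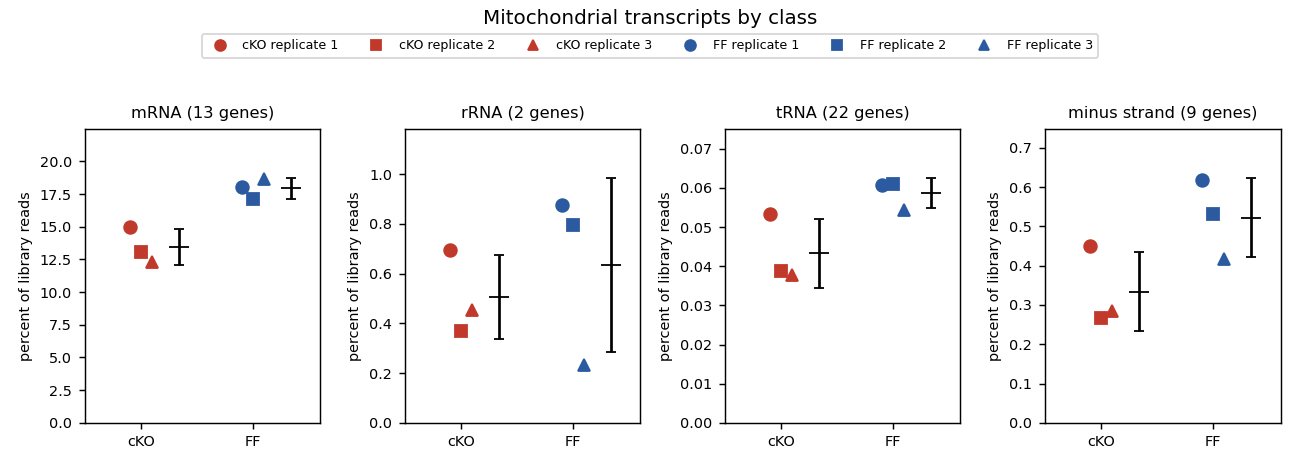
Share of all library reads (percent, y axes from 0) in mitochondrial mRNA, rRNA, tRNA and minus-strand genes, with a point per library and the mean ± SD of each group as a bar. The mRNA and tRNA shares of the cKO hearts lie below all FF hearts, while the rRNA share of FF replicate 3 (0.233%) lies below all cKO hearts.

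Of the classes within the mitochondrial reads, minus-strand tRNA separated the groups, with 0.237%, 0.217% and 0.206% of those reads in cKO and 0.246%, 0.262% and 0.260% in FF replicates 1 to 3. mt-Tn and mt-Tc carried this too. The summed share of the other minus-strand tRNA genes went the other way, higher in every cKO heart than in every FF heart. Among them, mt-Tp held 0.0615%, 0.0642% and 0.0692% of the mitochondrial reads in cKO and 0.0238%, 0.0388% and 0.0525% in FF replicates 1 to 3. The ratio of rRNA to mRNA reads was 0.0464, 0.0283 and 0.0367 in cKO replicates 1 to 3 and 0.0486, 0.0464 and 0.0125 in FF replicates 1 to 3. The ratio of minus-strand to plus-strand reads was 0.0296, 0.0203 and 0.0226 in cKO and 0.0337, 0.0305 and 0.0225 in FF replicates 1 to 3. The rRNA and strand ratios overlapped between the groups through FF replicate 3. Without it the cKO hearts lay below the FF hearts, by little between cKO replicate 1 and FF replicate 2.

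Gene by gene, a single mitochondrial row passed the threshold of the test across all genes with 6 libraries. It was mt-Ti, a tRNA with few reads, which made 1 called higher of the 34 mitochondrial genes tested, beside a background of 0.0710% of 12678 genes. mt-Ti and mt-Tq passed the filter on low values only through the cKO hearts, so they had to differ and their calls support nothing. Of the other 32 genes, 0 were called higher and 0 lower (background 0.0947%), and 8 of them, 25.0%, had an unadjusted p under 0.05 in limma, against 17.9% of all genes tested. The log2 difference on the log2(FPKM + 1) scale was below 0 for 12 of the 13 mRNA genes, with a median of -0.57, against 0.01 over all genes tested, of which 49.3% were below 0. With quantile normalization, which ties the highest genes to shared ranks, 8 of those 12 stayed below 0, mt-Nd1, mt-Co1 and mt-Cytb stood at 0 and mt-Nd4 at 0.043. For the 2 rRNA genes the median was -0.33, and with quantile normalization mt-Rnr2 stood above 0, at 0.23. Of the 19 tRNA genes tested, 14 were above 0, with a median of 0.32. Without FF replicate 3, 12 were, with a median of 0.18. These counts and medians include mt-Ti and mt-Tq, which support nothing, and other genes with few reads. For the 10 tRNA genes with a mean of at least 50 reads the median was 0.18, and without FF replicate 3 it was below 0, at -0.047. The groups did not overlap at 8 of the 34 genes, 23.5%, against 28.0% of all genes tested. In 4 of them, mt-Ti and mt-Tq among them, cKO was higher (background 13.5%) and in 4 lower (background 14.5%).

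Leaving out FF replicate 3 raised the counts for mitochondrial genes and for all genes alike. Then mt-Ti and mt-Tq, under the same limit, were called higher (background 5.73%) and 3 genes lower (background 6.26%). Without those tRNAs the calls are 3 of 32, 9.38%, against 12.0% of all genes tested. The groups did not overlap at 19 of the 34, 5 of them higher in cKO (background 25.0%) and 14 lower (background 27.0%), against 52.0% of all genes in either direction. By class, cKO lay below FF without overlap at 9 of 13 mRNA, 2 of 2 rRNA and 3 of 19 tRNA genes. Over the 32 genes without mt-Ti and mt-Tq, 53.1% did not overlap, so with both directions together both shares lie near the background. Split by direction, 14 of the 32 lay lower and 3 higher in cKO, while 27.0% and 25.0% of all genes did. This imbalance was not tested.

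**Figure D2:**
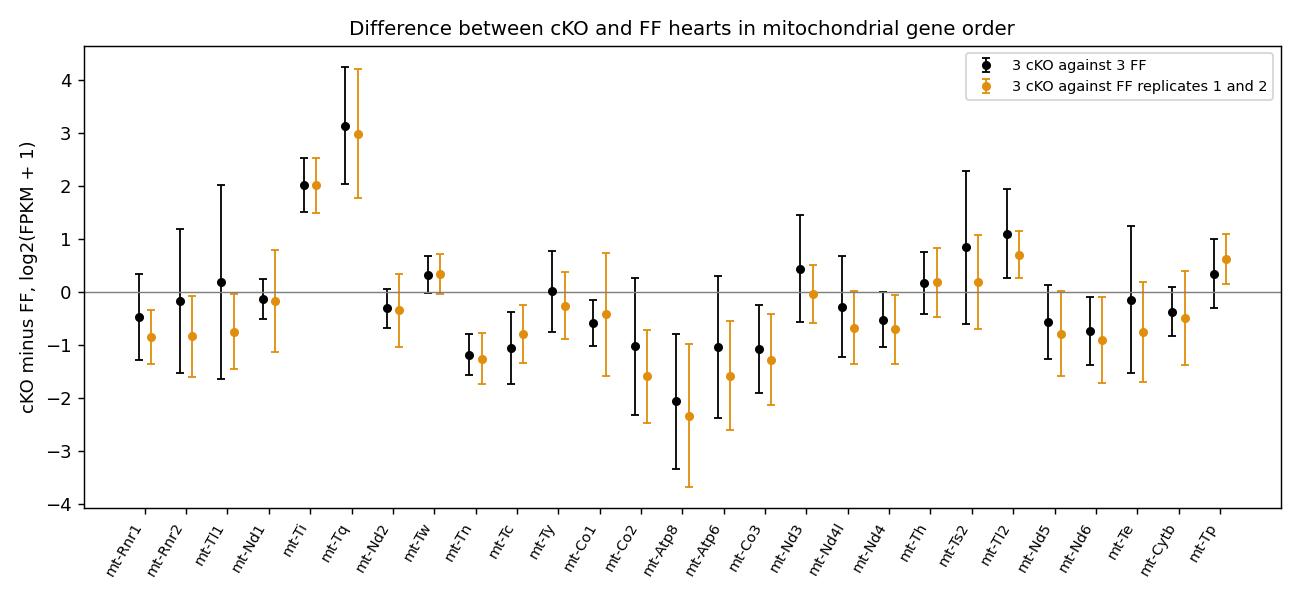
Difference between cKO and FF hearts (cKO minus FF, log2 of FPKM + 1) for the mRNA and rRNA genes, the 10 tRNA genes with a mean of at least 50 reads, mt-Ti and mt-Tq, in mitochondrial gene order, with 95% intervals of limma. Black points use 6 libraries and orange points leave out FF replicate 3; mt-Atp8 (-2.07) is the lowest and mt-Tq (3.13) the highest point with 6 libraries.

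The rRNAs form the RNA core of the mitochondrial ribosome. The small rRNA gene mt-Rnr1 had 912, 591 and 652 FPKM in cKO replicates 1 to 3 and 1326, 1220 and 584 FPKM in FF replicates 1 to 3. The large rRNA gene mt-Rnr2 had 3693, 1928 and 2291 FPKM in cKO and 4961, 4182 and 1141 FPKM in FF replicates 1 to 3. At both genes FF replicate 3 was the lowest library, with 45.9% and 25.0% of the mean of the other FF hearts, so the groups overlapped. The log2 differences were -0.48 (SE 0.34) for mt-Rnr1 and -0.18 (SE 0.57) for mt-Rnr2, with adjusted p = 0.521 and 0.900 in limma. Without FF replicate 3 they were -0.85 (adjusted p = 0.0508) and -0.84 (adjusted p = 0.120).

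Complex IV, cytochrome c oxidase, takes 3 core subunits from this genome. mt-Co1, which holds the haem and copper site where oxygen is reduced, was the most abundant transcript of the 13 in every library. It had 39437, 43090 and 35581 FPKM in cKO replicates 1 to 3, against 54483, 51193 and 74517 FPKM in FF replicates 1 to 3. All cKO values lay below all FF values, and FF replicate 3 was the highest library. The log2 difference was -0.59 (SE 0.18, adjusted p = 0.174, limma) and, without FF replicate 3, -0.43 (SE 0.48, adjusted p = 0.570).

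mt-Co2, which takes electrons from cytochrome c, had 913, 387 and 452 FPKM in cKO replicates 1 to 3 and 1752, 1546 and 507 FPKM in FF replicates 1 to 3. mt-Co3 had 552, 327 and 223 FPKM in cKO and 817, 849 and 552 FPKM in FF replicates 1 to 3. At mt-Co2 the value of FF replicate 3 fell within the cKO range, and at mt-Co3 it was just under that of cKO replicate 1. With 6 libraries their log2 differences were -1.03 (SE 0.54, adjusted p = 0.380) and -1.08 (SE 0.35, adjusted p = 0.188) in limma. Without FF replicate 3, mt-Co2 was called lower, at -1.60 (SE 0.36, adjusted p = 0.0412), and mt-Co3 was at -1.28 (adjusted p = 0.0626).

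Complex V, the ATP synthase, takes 2 membrane subunits from overlapping genes on a shared mRNA. mt-Atp8 had 282, 167 and 64.6 FPKM in cKO replicates 1 to 3, against 784, 692 and 422 FPKM in FF replicates 1 to 3. All cKO values lay below all FF values, and the cKO mean was 27.1% of the FF mean, the lowest ratio of the 13 mRNA genes. The log2 difference was -2.07 (SE 0.53, adjusted p = 0.130, limma) with 6 libraries, and mt-Atp8 was called lower without FF replicate 3, at -2.34 (SE 0.56, adjusted p = 0.0462). mt-Atp6, the proton channel subunit, had 789, 332 and 283 FPKM in cKO and 1278, 1241 and 409 FPKM in FF replicates 1 to 3. Its log2 difference was -1.04 (SE 0.56, adjusted p = 0.390) and, without FF replicate 3, -1.58 (SE 0.42, adjusted p = 0.0586). The 2 genes overlap by 43 bases, and the sources used here do not say how reads in the overlap were counted.

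Complex III takes a single subunit, cytochrome b. mt-Cytb had 18933, 13401 and 13909 FPKM in cKO replicates 1 to 3 and 22928, 20257 and 16581 FPKM in FF replicates 1 to 3. The groups overlapped, since cKO replicate 1 lay above FF replicate 3. Its log2 difference was -0.38 (SE 0.20, adjusted p = 0.381, limma), and -0.50 (adjusted p = 0.376) without FF replicate 3.

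Complex I, the NADH dehydrogenase, takes 7 membrane subunits from this genome, and none of them was called with or without FF replicate 3. mt-Nd1 had 25685, 22061 and 20546 FPKM in cKO replicates 1 to 3 and 28921, 22724 and 23605 FPKM in FF replicates 1 to 3. Its log2 difference of -0.14 (SE 0.16, adjusted p = 0.698, limma) was the closest to 0 of the 13 mRNA genes. mt-Nd2 had 9220, 7463 and 7190 FPKM in cKO and 11091, 9165 and 9410 FPKM in FF replicates 1 to 3, and the groups overlapped only at cKO replicate 1 and FF replicate 2.

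The neighbours mt-Nd4, mt-Nd5 and mt-Nd6 had log2 differences of -0.53 (SE 0.22), -0.57 (SE 0.29) and -0.74 (SE 0.27), with adjusted p = 0.274, 0.377 and 0.230 in limma. mt-Nd4 had 6329, 4392 and 4838 FPKM in cKO and 8672, 8095 and 5730 FPKM in FF replicates 1 to 3. mt-Nd5 had 7354, 4282 and 4206 FPKM in cKO and 9335, 8333 and 5516 FPKM in FF replicates 1 to 3. At both genes cKO replicate 1 lay above FF replicate 3, and the cKO values lay below the other FF hearts.

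mt-Nd6 is the only mRNA gene of the minus strand. It had 7713, 4504 and 4650 FPKM in cKO replicates 1 to 3 and 11463, 9135 and 7182 FPKM in FF replicates 1 to 3. Relative to its antisense neighbour mt-Nd5, with which it overlaps by 14 bases, its FPKM was 1.05, 1.05 and 1.11 times as high in cKO and 1.23, 1.10 and 1.30 times as high in FF replicates 1 to 3. The sources used here do not give the strand setting of the counting, so reads of antisense transcripts may be part of either row.

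The small subunits mt-Nd3 and mt-Nd4l were the lowest complex I transcripts. mt-Nd3 had 259, 251 and 161 FPKM in cKO and 247, 206 and 83.2 FPKM in FF replicates 1 to 3. It was the one mRNA gene with a log2 difference above 0 with 6 libraries, at 0.43 (SE 0.42, adjusted p = 0.641, limma), and stood at -0.04 without FF replicate 3. mt-Nd4l had 507, 356 and 284 FPKM in cKO and 479, 739 and 262 FPKM in FF replicates 1 to 3, with the groups mixed.

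**Figure D3:**
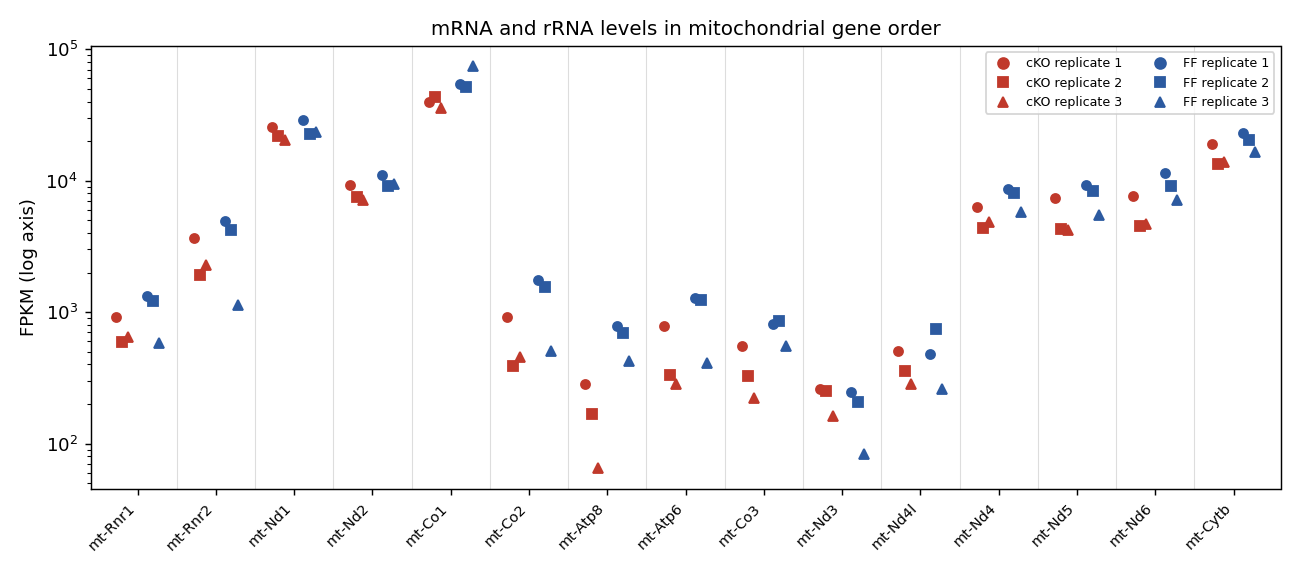
Level of the 13 mRNA and 2 rRNA genes in FPKM (log axis) in gene order, with a symbol per library, cKO left of FF at each gene. mt-Co1 is the highest gene in every library, and the stretch from mt-Co2 to mt-Nd4l reaches at most 1752 FPKM.

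The levels split along the sequence shared with the nuclear copies. The 5 mRNA genes with at least 95% of their windows in nuclear transcripts had mean levels of 224 to 584 FPKM in cKO and 179 to 1268 FPKM in FF hearts. Of the other 8, mt-Atp8 averaged 171 FPKM in cKO and 633 FPKM in FF hearts, and the remaining genes averaged at least 5186 FPKM in cKO and 7499 FPKM in FF hearts. The copies themselves held reads, 21175 to 29634 over 10 annotated pseudogenes in cKO and 26767 to 36475 in FF libraries, which is 0.812% to 0.987% of the mitochondrial reads in cKO and 0.727% to 1.08% in FF hearts. Gm10925, the copy of mt-Atp6, had 698, 458 and 421 FPKM in cKO replicates 1 to 3 and 949, 839 and 430 FPKM in FF replicates 1 to 3, within the range of mt-Atp6 itself in both groups. The sources used here do not say how reads that match both places were handled, and the part of the copies in these levels was not tested. The log2 differences of these 5 genes and of mt-Nd4 and mt-Co1 therefore carry this uncertainty. mt-Atp8, with its low level and its place at the gap in the run, was compared with annotated nuclear transcripts alone, and a copy outside them was not looked for, so its difference and its call carry a like uncertainty.

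**Figure D4:**
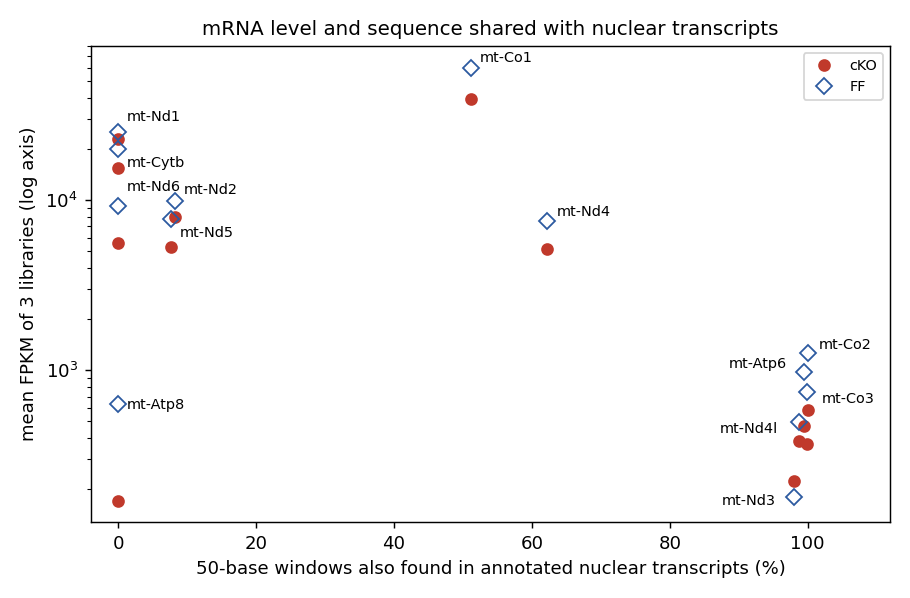
Mean FPKM of the 13 mRNA genes (log axis) against the percent of their 50-base windows found in annotated nuclear transcripts, with filled circles for cKO and open diamonds for FF. The 5 genes at the right reach at most 1268 FPKM and mt-Atp8 at the left 633 FPKM, and the other 7 start at 5186 FPKM.

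The mix of mRNAs within a library does not depend on library scaling. mt-Nd1 made up 17.0%, 16.5% and 17.0% of the mitochondrial mRNA reads in cKO replicates 1 to 3 and 11.9% to 14.8% in FF hearts. mt-Co1 made up 42.1%, 52.0% and 47.6% in cKO and 44.9%, 47.2% and 60.8% in FF replicates 1 to 3. The mt-Nd1 share was higher in every cKO heart than in every FF heart, whereas for mt-Co1 only FF replicate 3 stood outside the rest. The FPKM ratio of mt-Nd2 to mt-Nd1, which share little or no sequence with nuclear transcripts, was 0.359, 0.338 and 0.350 in cKO and 0.383, 0.403 and 0.399 in FF replicates 1 to 3. It is 1 of 28 ratios (35.9%), of the 78 that 13 genes allow, at which the groups did not overlap. Without FF replicate 3 there were 55 (70.5%), and no background of other gene pairs was drawn. These ratios share genes and were picked after their values were seen, so they are given without a test.

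Among the tRNAs, which carry amino acids to the mitochondrial ribosome, reads were very uneven. A mature tRNA is shorter than a usual library fragment, and FPKM over so short a gene can also count fragments of uncut precursors. Of the 22 tRNA genes, 10 had a mean of at least 50 reads per library. Of the other 12, mt-Tf and mt-Td had 0 reads in all 6 libraries, and the remaining 10 had at most 65 reads in any library. mt-Ta (alanine) had 46 to 65 reads in cKO and 19 to 48 in FF libraries, mt-Tg (glycine) 16 to 44 in cKO and 7 to 23 in FF, and mt-Tr (arginine) 13 to 40 in cKO and 4 to 14 in FF. mt-Tm, mt-Tv, mt-Tt and mt-Tk had 0 to 10 reads in cKO and 0 to 13 in FF libraries, and mt-Ts1 had 2 reads in cKO replicate 2 and 0 elsewhere. These groups overlapped at each of the 8 genes.

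mt-Tn and mt-Tc, beside the light-strand origin, were lower in all cKO hearts. mt-Tn had 1635, 1422 and 1193 FPKM in cKO replicates 1 to 3, against 3542, 3228 and 2867 FPKM in FF replicates 1 to 3. FF replicate 3 lay with the other FF hearts here, and the cKO mean was 44.1% of the FF mean. The log2 difference of -1.19 (SE 0.16) had an adjusted p = 0.0577 in limma with 6 libraries, and mt-Tn was called lower without FF replicate 3, at -1.27 (SE 0.20, adjusted p = 0.0202). mt-Tc had 1013, 908 and 651 FPKM in cKO and 1595, 1348 and 2576 FPKM in FF replicates 1 to 3. Its log2 difference was -1.07 (SE 0.28, adjusted p = 0.137), and -0.80 (adjusted p = 0.0644) without FF replicate 3, which was the highest library.

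Ratios to the mRNAs on either side separated the groups in part. The FPKM of mt-Tn was 0.177, 0.191 and 0.166 times that of mt-Nd2 in cKO replicates 1 to 3 and 0.319, 0.352 and 0.305 times in FF replicates 1 to 3. For mt-Tc the ratios to mt-Nd2 were 0.110, 0.122 and 0.0906 in cKO and 0.144, 0.147 and 0.274 in FF replicates 1 to 3. Neither ratio overlapped between the groups. Relative to mt-Co1, on the other side, mt-Tn stood at 0.0414, 0.0330 and 0.0335 in cKO and 0.0650, 0.0630 and 0.0385 in FF replicates 1 to 3, which overlapped through FF replicate 3. mt-Tc stood at 0.0257, 0.0211 and 0.0183 times mt-Co1 in cKO and 0.0293, 0.0263 and 0.0346 times in FF replicates 1 to 3, without overlap. Both tRNA genes lie opposite the strand of mt-Nd2 and mt-Co1, and without the strand setting their reads cannot be told from antisense ones.

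Of the 19 tRNA genes tested, 4 had higher values in every cKO heart than in every FF heart, against 13.5% of all genes tested. They include mt-Ti and mt-Tq, which had to differ. mt-Tl2 (leucine, codons CUN) had 208, 137 and 147 FPKM in cKO and 94.9, 103 and 43.4 FPKM in FF replicates 1 to 3, a log2 difference of 1.09 (SE 0.35, adjusted p = 0.189, limma). mt-Tw (tryptophan) had 405, 381 and 384 FPKM in cKO and 362, 263 and 319 FPKM in FF replicates 1 to 3, at 0.32 (SE 0.15, adjusted p = 0.323). Neither was called with or without FF replicate 3.

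mt-Ti (isoleucine) and mt-Tq (glutamine) follow mt-Nd1 on opposite strands, overlap by 3 bases and were near 0 in FF hearts. mt-Ti had 5, 5 and 3 reads in cKO replicates 1 to 3 and 0 reads in each FF library, at least 3.89-fold higher against a floor of 3 reads over the FF group. Its log2 difference of 2.01 (SE 0.21) passed, with an adjusted p = 0.0428 in limma, and rests on 13 reads in all. mt-Tq had 23, 17 and 7 reads in cKO and 0, 1 and 0 reads in FF libraries, 42.2-fold higher with an exact counting interval of 7.22 to 1703 (95%, counting error only). Its log2 difference was 3.13 (SE 0.46, adjusted p = 0.0598), and without FF replicate 3 both were called higher, with adjusted p = 0.0136 for mt-Ti and 0.0237 for mt-Tq. Both passed the filter on low values only through the cKO hearts and were picked after their values were seen. Their folds, interval and calls therefore support nothing. The interval pools the reads of each group and leaves out the spread between hearts. mt-Ti overlaps mt-Nd1 by 2 bases, and mt-Nd1 had 347790 to 485439 reads per library.

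The other well-read tRNA genes overlapped between the groups with 6 libraries. mt-Tl1 had 1148, 566 and 743 FPKM in cKO and 1364, 1283 and 187 FPKM in FF replicates 1 to 3, so that FF replicate 3 was the lowest library, as at the rRNA gene beside it. Its log2 difference was 0.18 (adjusted p = 0.923, limma) and, without FF replicate 3, -0.75 (adjusted p = 0.131), with all cKO values below FF.

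mt-Tp had 1394, 1263 and 1242 FPKM in cKO and 700, 1018 and 1506 FPKM in FF replicates 1 to 3. The log2 difference of mt-Tp was 0.34 (adjusted p = 0.561, limma) and, without FF replicate 3, 0.62 (adjusted p = 0.0851), with all cKO values above FF. mt-Te (glutamate) had 976, 429 and 396 FPKM in cKO and 1006, 863 and 262 FPKM in FF replicates 1 to 3. At mt-Te the log2 difference was -0.15 (adjusted p = 0.917, limma) and, without FF replicate 3, -0.76 (adjusted p = 0.223), and the groups overlapped in both.

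mt-Th (histidine) had 231, 158 and 118 FPKM in cKO and 153, 135 and 146 FPKM in FF replicates 1 to 3. mt-Ts2 (serine) had 100.4, 41.2 and 47.6 FPKM in cKO and 57.6, 45.6 and 12.4 FPKM in FF replicates 1 to 3. mt-Ty (tyrosine) had 185, 111 and 105 FPKM in cKO and 137, 177 and 88.1 FPKM in FF replicates 1 to 3. The groups were mixed at all 3 genes, with log2 differences of 0.17, 0.84 and 0.0039 with 6 libraries and 0.17, 0.18 and -0.27 without FF replicate 3.

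**Figure D5:**
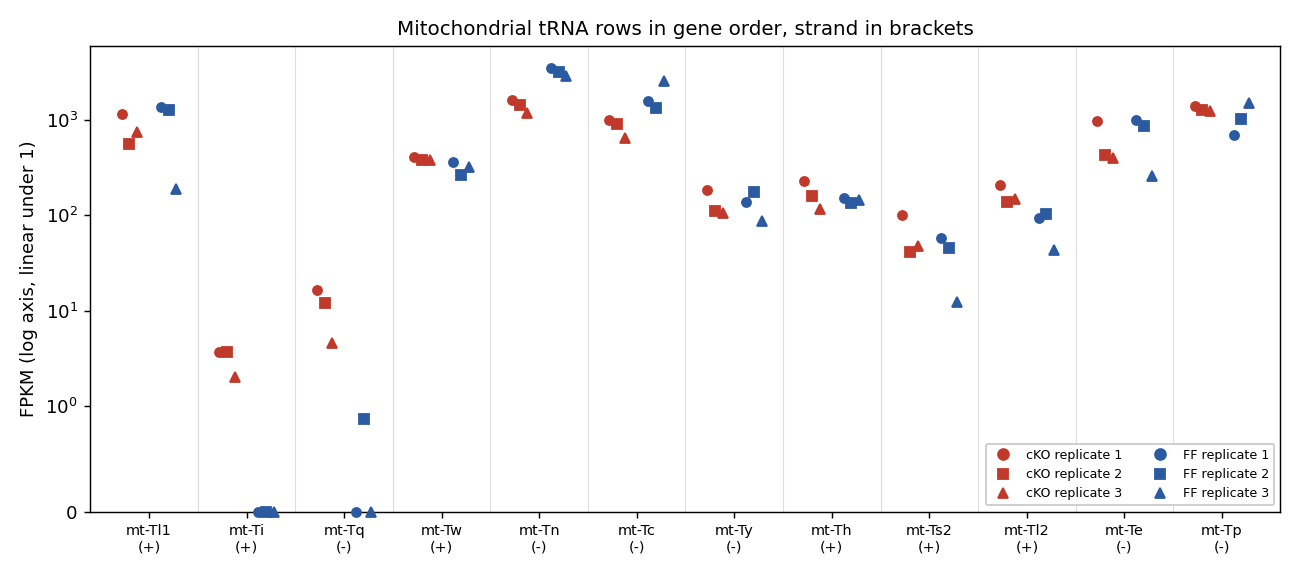
Level in FPKM (log axis, linear under 1) of the 10 tRNA genes with a mean of at least 50 reads, and of mt-Ti and mt-Tq, in gene order with the strand in brackets, cKO left of FF. At mt-Tn and mt-Tc all cKO hearts lie below all FF hearts, and at mt-Ti, mt-Tq, mt-Tw and mt-Tl2 they lie above.

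Nuclear genes that make, cut, modify or use these RNAs had no member called with 6 libraries (0 of 149 tested, limma). At an unadjusted p under 0.05 in limma, 16 were higher and 12 lower, 18.8% against 17.9% of all genes tested. Without FF replicate 3, 9 of the 149 were called higher (background 5.73%) and 10 lower (background 6.26%). Of 15 transcription genes tested, including the polymerase Polrmt and Tfam, 0 were called either way, with a median log2 difference of 0.15 with 6 libraries. The coactivator gene Ppargc1b averaged 8.60 ± 0.888 FPKM in cKO and 5.96 ± 0.381 FPKM in FF hearts (SD, n = 3 each; adjusted p = 0.137, limma). Mrpl12, a ribosomal protein that also binds the polymerase, averaged 50.6 ± 5.71 FPKM in cKO and 72.3 ± 5.96 FPKM in FF hearts (adjusted p = 0.139, limma).

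Of 19 genes of DNA copying and packaging, 3 were called higher (background 5.73%) and 0 lower (background 6.26%) without FF replicate 3: Twnk, Lig3 and Atad3a. The helicase gene Twnk had 7.37, 8.11 and 7.05 FPKM in cKO and 4.69, 4.24 and 4.84 FPKM in FF replicates 1 to 3, a log2 difference of 0.61 (SE 0.12, adjusted p = 0.0748, limma) with 6 libraries and 0.64 (adjusted p = 0.0207) without FF replicate 3. The ligase gene Lig3 averaged 3.82 ± 0.158 FPKM in cKO and 2.56 ± 0.0717 FPKM in FF hearts (SD, n = 3 each).

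Of 22 genes of RNA cutting, tailing, stability and decay, 18 had a log2 difference above 0 with 6 libraries (median 0.24). Over all genes tested, 49.3% were below 0. Without FF replicate 3, 4 were called higher (Ptcd1, Ptcd2, Fastkd1 and Tbrg4) and 1 lower (Pde12, which trims poly(A) tails). The background was 5.73% higher and 6.26% lower. Ptcd1, a pentatricopeptide protein tied to leucine tRNAs in human cells, had 7.93, 10.2 and 9.41 FPKM in cKO and 5.17, 4.42 and 6.48 FPKM in FF replicates 1 to 3, with adjusted p = 0.110 in limma with 6 libraries and 0.0207 without FF replicate 3. Fastkd1 averaged 6.83 ± 0.740 FPKM in cKO and 4.04 ± 0.452 FPKM in FF hearts (SD, n = 3 each; adjusted p = 0.0888, limma).

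Of 24 genes of rRNA and tRNA modification, 0 were called higher (background 5.73%) and 1 lower (background 6.26%) without FF replicate 3. It was Yrdc, which makes a tRNA modification in the cytosol and mitochondria, with 5.27, 5.18 and 5.26 FPKM in cKO and 8.75, 8.46 and 8.02 FPKM in FF replicates 1 to 3 (adjusted p = 0.0690 with 6 libraries, limma). Rpusd4, a pseudouridine synthase, averaged 4.26 ± 0.242 FPKM in cKO and 2.96 ± 0.518 FPKM in FF hearts (SD, n = 3 each; adjusted p = 0.201, limma). Of 23 aminoacyl-tRNA synthetase genes and related enzymes, 2 were called higher and 0 lower without FF replicate 3, beside the same background. They were Ears2 and Wars2, which charge the glutamate and tryptophan tRNAs. Ears2 averaged 9.17 ± 1.06 FPKM in cKO and 5.44 ± 0.709 FPKM in FF hearts (SD, n = 3 each; adjusted p = 0.0932 with 6 libraries, limma). Of 15 translation factors, 0 were called either way. The 2 with the smallest p were Mrpl58, which releases stalled ribosomes, at a log2 difference of -0.35 (adjusted p = 0.189), and the release factor gene Mtrf1, at 0.42 (adjusted p = 0.368, limma).

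Of 32 nuclear partners of the complexes that hold mitochondrially encoded subunits, 24 had a log2 difference below 0 (median -0.22 with 6 libraries). Of all genes tested, 49.3% were below 0. Without FF replicate 3, 8 were called lower (background 6.26%) and 0 higher (background 5.73%). They were Ndufb10, Ndufb9 and Ndufs7 of complex I, Uqcrb and Uqcrq of complex III and Cox4i1, Cox5b and Cox8b of complex IV. Ndufb10 had 153, 144 and 127 FPKM in cKO and 233, 233 and 207 FPKM in FF replicates 1 to 3 (adjusted p = 0.0771 with 6 libraries, limma). Cox8b had 134, 113 and 70.8 FPKM in cKO and 212, 238 and 145 FPKM in FF replicates 1 to 3.

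Summed markers of other cells differed between the groups for some types. The 8 brown fat markers, from a tissue rich in mitochondria, summed to 85.6 to 147 FPKM in cKO and 173 to 265 FPKM in FF hearts. Nearly all of that sum was Cox8b, also the subunit isoform of heart muscle, and Cidea, while Ucp1, Elovl3, Plin1 and Adipoq were at most 0.340 FPKM in any library and 1 to 3 of the 8 were at 0. The 11 thymocyte markers separated FF replicate 3, where 0 of them were at 0, from the other 5 libraries, where 3 to 4 were, and their part in its mitochondrial values was not tested. The 7 erythroid markers summed to 891 to 1096 FPKM in cKO and 753 to 1554 FPKM in FF hearts, with 0 of them at 0 in each library. The 7 skeletal muscle markers, nearly all Ckm and Acta1, summed to 372 to 442 FPKM in cKO and 262 to 453 FPKM in FF hearts. Sums in cKO and FF hearts were 436 to 560 and 536 to 803 FPKM for 6 fibroblast markers, 186 to 232 and 209 to 326 FPKM for 5 endothelial markers, and 17.3 to 23.4 and 23.6 to 49.5 FPKM for 5 macrophage markers. The brown fat and macrophage sums did not overlap between the groups, the macrophage sums by little (23.4 FPKM in cKO replicate 2, 23.6 FPKM in FF replicate 1). Single members went the other way. The macrophage marker Mrc1 averaged 2.84 FPKM in cKO and 2.14 FPKM in FF hearts, and the brown fat markers Dio2 and Pparg were slightly higher in cKO. The part of these cells in the mitochondrial values was not tested. None of the 3 liver and 3 lung markers averaged 1 FPKM.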

How the data were processed

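The authors deposited FPKM values per gene in 6 columns, per the file headers, with no replicates pooled. The submitters' processing notes list TopHat2 2.0.13, featureCounts, Subread, edgeR and FastQC, in no stated order. They also list 3 builds (mm10, GRCm39, GRCh38) without a role for each. Per the labels' protocols, RNA was isolated with a miRNeasy micro kit and Ovation Ultralow V2 reagents made the libraries. The sources used here do not give the strand setting, the handling of multiply mapped reads or the annotation release. Of 52036 nuclear gene identifiers shared with GENCODE M21 (GRCm38), 1435 had the same start and end, against 37 of 37 on chromosome MT, so nuclear coordinates are printed as the table gives them.

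Reads were recovered from FPKM, since FPKM times length moved in equal steps within a library (100% of values under 200 reads lay within 0.1 of a whole number). Precision follows from these reads, and the counting interval and floor cover counting error only. The test was limma 3.58.1 (R 4.3.3) applied to log2(FPKM + 1), cKO minus FF, with group as the only term and an intensity trend. Benjamini-Hochberg adjustment at 0.05 ran over 12678 genes whose mean FPKM reached 1. This scale understates the change of low genes. Of the steps, only the limma test was run on simulated data, which held no library that stood apart as FF replicate 3 does.

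All 37 mitochondrial genes are reported, with values per library for the mRNA and rRNA genes and for tRNA genes with a mean of at least 50 reads, and as read counts or ranges for the others. mt-Ti and mt-Tq were added after their values were seen. Of the nuclear lists, called members or the 2 with the smallest p with 6 libraries are named, and those called without FF replicate 3. The members and lists were chosen with earlier results of these data known. Sequences are from GENCODE M21 transcripts (37 of 37 matched), searched in windows of 50 bases on both strands and aligned with Biopython 1.88. Alternatives were other pseudocounts, filters, scalings, variance priors, library weights, a replicate block and leaving out each library.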

Additional observations from a re-analysis of the deposited data

How the results depend on the processing

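The lower share of mitochondrial reads in cKO hearts held under each alternative tried for it (2 other denominators, nuclear copies added, each library left out), with a difference of -5.49 to -4.05 percentage points when a library was left out. For mRNA it was -5.25 to -3.94, for rRNA -0.330 to -0.00859, for tRNA -0.0204 to -0.0126, for the plus strand -5.25 to -3.89 and for the minus strand -0.246 to -0.140 points. None of these alternatives left out mt-Co1, or mt-Tn and mt-Tc, on which the separation of the total and tRNA shares depended. The rRNA to mRNA ratio difference changed sign, from -0.0104 to 0.00768 over the libraries left out, and the minus to plus strand ratio difference ran from -0.00791 to -0.00230. The log2 difference of mt-Rnr2 ran from -0.84 to 0.22, mt-Tl1 from -0.75 to 0.68, mt-Te from -0.76 to 0.21, mt-Ty from -0.27 to 0.23, mt-Nd3 from -0.043 to 0.74, mt-Nd4l from -0.68 to 0.071 and mt-Th from -0.085 to 0.40 when a library was left out. mt-Tn stayed between -1.30 and -1.07 and mt-Atp8 between -2.54 and -1.49.

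Counts of genes moved more. Leaving out a library gave 0 to 726 genes higher and 0 to 794 lower of all tested, 0 to 2 mitochondrial genes higher and 0 to 3 lower, and 0 to 9 nuclear list genes higher and 0 to 10 lower. The highest count of each came without FF replicate 3, and leaving out any other library gave 0 (limma), with 1268 to 2041 of all genes, 7 to 15 mitochondrial and 14 to 31 nuclear list genes at an unadjusted p under 0.05. Those are 20.6% to 44.1% of the mitochondrial genes tested, against at most 16.1% of all genes. mt-Ti and mt-Tq, which had to differ, are counted in the mitochondrial share, so its excess cannot be read as it stands. Genes higher and lower were 0 and 0 with no filter (3210 at an unadjusted p under 0.05, limma), 23 and 30 at a mean FPKM of at least 5, 15 and 19 rescaled outside the mitochondrial genome (with or without haemoglobin), 31 and 28 with quantile normalization and 2143 and 2157 with library weights. Lower genes were 5 and 6 with pseudocounts of 0.1 and 0.5, 6 with median-ratio scaling and 6 with a robust prior. Mitochondrial genes called were 0 with a pseudocount of 0.1 or no filter. At the higher filter, which leaves mt-Ti out, they were 1 higher (mt-Tq) and 1 lower (mt-Tn). Library weights called 4 higher, mt-Ti and mt-Tq among them, and 13 lower. They also called 26 nuclear list genes higher and 24 lower. The 1 call with 6 libraries, mt-Ti, had an adjusted p = 0.0560 with a pseudocount of 0.1, 0.102 with no filter and 0.138 to 0.258 when a library other than FF replicate 3 was left out (limma).

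Quantile normalization, which sets a gene's value by its rank, gave log2 differences of 0 for mt-Co1, mt-Nd1 and mt-Cytb, 0.043 for mt-Nd4, 0.23 for mt-Rnr2 and 0.065 for mt-Te. Library weights gave -0.031 for mt-Nd3, -0.74 for mt-Tl1 and -0.49 for mt-Ty, and rescaling outside the mitochondrial genome -0.0034 for mt-Ty, or -0.0036 with haemoglobin also left out. The causes were not tested. With the replicate number as a block, 1 gene was higher and 1 lower of all tested, and 0 mitochondrial genes were called (limma, mt-Ti adjusted p = 0.137). There, 17 of 34 mitochondrial genes had an unadjusted p under 0.05 in limma, against 15.7% of all genes. The 34 include mt-Ti and mt-Tq, which had to differ. The numbers were not taken as pairs: deviations of same-numbered libraries correlated at 0.383, -0.24 and 0.239, and cKO replicate 2 correlated best with FF replicate 3.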
